A study of Drosophila melanogaster with 46 samples.

Results

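The autophagy and vacuolar ATPase genes of Drosophila were described across 12 groups of whole adult females. Members were all genes whose symbol in the probe table of the array begins with Atg and a digit or with Vha, taken from probe sets that name 1 gene, and the brightest probe set stood for each gene. The rule found 51 members, 20 Atg and 31 Vha, among the 11982 genes named by such probe sets. All 51 symbols matched a gene in RefSeq, which lists 20 Atg and 33 Vha symbols. Vha68-1 and Vha68-2, which encode catalytic A subunits, were not analysed here.

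Autophagy encloses cell material in a double membrane, the autophagosome, and delivers it to the lysosome for breakdown. The Atg proteins act in turn, from the Atg1 kinase complex through the lipid kinase complex to the conjugation reactions that attach Atg8 to the growing membrane. In Drosophila the process is best known from the fat body, where food deprivation induces it. The vacuolar ATPase, or V-ATPase, is the proton pump that acidifies the lysosome and other compartments. It joins a V1 part, which hydrolyses ATP, to a V0 part, through which protons cross the membrane. Insects also use it in the plasma membrane of the Malpighian tubules and the midgut, where it energises ion transport. Fly genomes hold several copies of many V-ATPase subunit genes.

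Each of the 46 arrays measured RNA from a pool of 5 whole virgin females. The SR line had been selected for resistance to starvation, C was its control line, and each regime was represented by a single line. Flies of both lines were kept as adults on yeast and sugar at 0.5 (malnutrition), 2 (optimal food) or 5 (overfeeding) times the standard concentration. Old flies were collected when 10% of their cohort survived and middle-aged flies at 90% survival, so flies of one age class can differ in days between lines and diets. SR flies gave 4 arrays for each diet and age, C flies gave 3 for old flies on malnutrition and for old flies on overfeeding, and 4 for each other diet and age. Samples were whole bodies, so a lower level from fewer cells of a type and one from less RNA per cell cannot be told apart.

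Array medians lay between 5.04 and 5.27 on the log2 scale, and arrays of one group correlated at r = 0.974 to 0.998 over probe sets (66 pairs). Female samples should lack testis RNA, and the mean of 10 testis markers lay between 3.51 and 3.69 in the 12 groups, with 9 of the 10 dim. A probe set was called dim where its mean over all arrays was under 5 on the log2 scale, and 9743 of the 18952 probe sets were not.

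Of the Atg genes, 19 were measured above that limit, and Atg8b, a copy of the ubiquitin-like Atg8a, was dim at 4.42. Of the Vha genes, 20 were above it. The 11 dim ones were Vha100-3, Vha14-2, Vha16-2, Vha16-3, Vha16-4, Vha16-5, Vha36-2, Vha68-3, VhaAC39-2, VhaM9.7-d and VhaPPA1-2. In RefSeq order Vha16-3 lies next to Vha16-2, and Vha100-4 next to Vha100-2. No dim gene was called, and at these levels little can be read from that. For 7 members the probe set is of a kind that can also read other transcripts (Atg18a, Vha100-1, Vha100-2, Vha26, Vha44, Vha55 and VhaAC45).

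Differences between groups were tested with limma on all probe sets, and a gene was called at an adjusted p under 0.05. Over 20 comparisons between 2 groups (4 of malnutrition and 4 of overfeeding with optimal food, 6 of SR with C flies and 6 of old with middle-aged flies), 24 of the 51 members were called at least once, 12 in each family, and 27 never. Of the 46 calls, 30 were between malnutrition and optimal food, 10 of them in Atg genes and 20 in Vha genes. No Atg or Vha gene was called between overfeeding and optimal food. Over all probe sets, 7.36% to 9.52% were higher and 5.09% to 8.00% lower in the 4 malnutrition comparisons. At most 1.10% passed in an overfeeding comparison. The share of all probe sets called at least once was not counted, so these totals are no result about the members. The widest spread of the 12 group means belonged to VhaAC45RP, VhaM9.7-a, Vha36-3 and Vha100-4 (1.85, 1.80, 1.72 and 1.34 on the log2 scale). Leaving out the arrays one at a time, and in fits with a replicate block, with a filter on dim probe sets or with only the arrays of the groups compared, 17 of 47 calls (1 of them an interaction) stood throughout, and 16 of these were between malnutrition and optimal food.

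**Figure D1:**
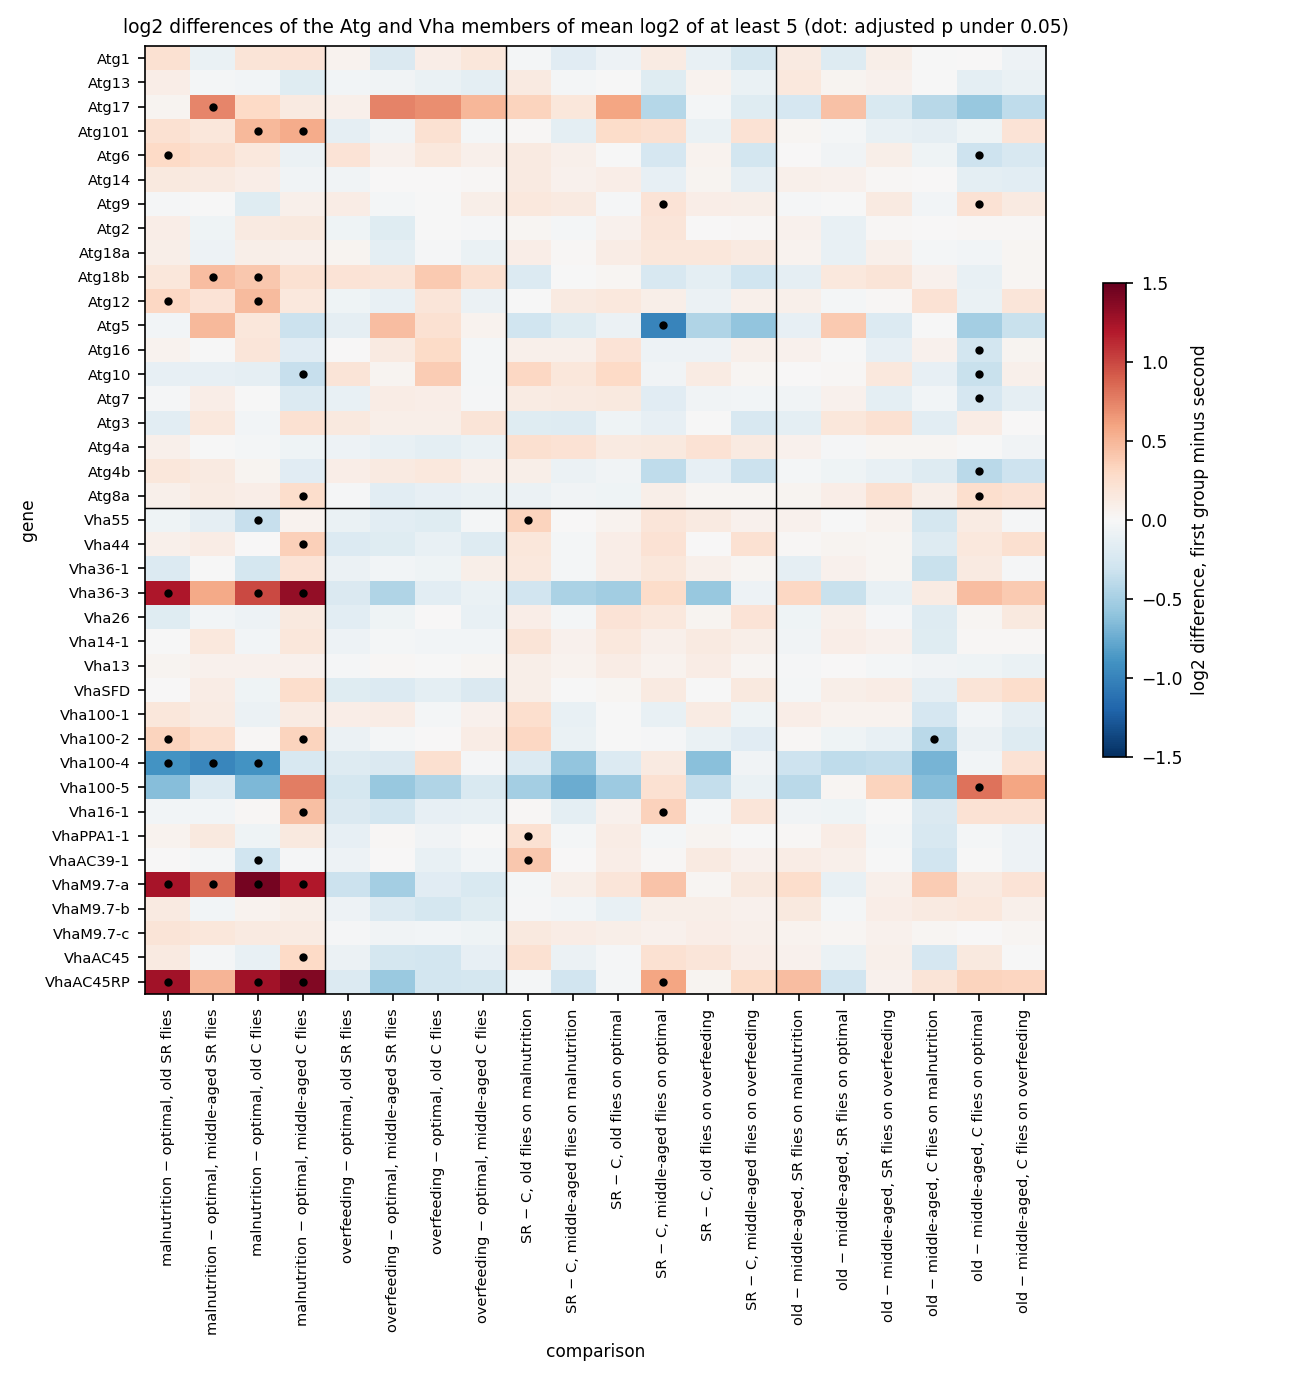
Rows are the 39 members that were not dim, ordered by role within each family, and columns are the 20 comparisons. Colour gives the log2 difference between the first and the second group and a dot marks a call in limma. The 4 malnutrition columns hold 7, 4, 9 and 10 dots, the column for age in C flies given optimal food 8, and the 4 overfeeding columns none.

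On malnutrition 3 Vha genes were higher by more than any other member called. VhaM9.7-a, which encodes a small e subunit of V0, VhaAC45RP, a relative of the Ac45 accessory protein, and Vha36-3, a copy of the D subunit of the V1 stalk, were 1.82-fold to 2.71-fold higher on malnutrition than on optimal food wherever they were called. Vha100-4, one of 5 genes for the proton-channel subunit a, was 1.86-fold to 1.97-fold lower in 3 of 4 comparisons. In all, 4 Vha genes were higher and 1 lower in old SR flies, 1 higher and 1 lower in middle-aged SR flies, 3 higher and 3 lower in old C flies, and 7 higher and 0 lower in middle-aged C flies, of 31 each. Over all probe sets, 8.24% were higher and 8.00% lower in old SR flies, 7.36% and 6.40% in middle-aged SR flies, 9.52% and 7.97% in old C flies, and 9.03% and 5.09% in middle-aged C flies. The median log2 difference of the 31 genes was 0.07, 0.05, -0.01 and 0.11 in these 4 comparisons, against 0.03, -0.01, 0.03 and -0.04 over all probe sets.

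VhaM9.7-a stood at 7.91, 7.78, 7.17 and 6.98 on the 4 arrays of old SR flies on malnutrition, against 6.39, 6.52, 6.19 and 5.81 on optimal food. It stood at 7.20, 7.31, 7.14 and 7.15 in middle-aged SR flies on malnutrition, against 6.16, 6.40, 6.19 and 6.60 on optimal food. In both ages every malnutrition array lay above every optimal one. The C line gave 7.33, 7.62 and 7.50 in old flies on malnutrition, against 6.02, 5.99, 6.33 and 5.84 on optimal food, and 6.68, 7.63, 6.94 and 7.19 in middle-aged flies on malnutrition, against 5.93, 5.97, 5.9996 and 5.72. No array overlapped in C flies either. The log2 difference was 1.23 ± 0.20 (SE) in old SR flies (limma adjusted p = 9.36e-06), 0.86 ± 0.20 in middle-aged SR flies (adjusted p = 0.00265), 1.44 ± 0.21 in old C flies (adjusted p = 3.46e-06) and 1.20 ± 0.20 in middle-aged C flies (adjusted p = 2.05e-05). It was the only member called in all 4.

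VhaAC45RP stood at 9.00, 8.19, 8.09 and 7.95 in old SR flies on malnutrition, against 7.11, 7.33, 6.93 and 6.84 on optimal food. Old C flies gave 8.22, 8.53 and 8.25 on malnutrition, against 7.10, 6.96, 7.52 and 6.71 on optimal food. Middle-aged C flies gave 7.90, 8.83, 7.73 and 8.08 on malnutrition, against 6.73, 6.75, 6.94 and 6.57 on optimal food. The groups did not overlap in these 3 comparisons, in which the gene was 2.39-fold, 2.40-fold and 2.62-fold higher on malnutrition (limma adjusted p = 5.02e-06, 2.13e-05 and 1.59e-06). Middle-aged SR flies gave 7.92, 7.96, 7.81 and 7.70 on malnutrition and 7.41, 7.40, 7.02 and 7.50 on optimal food, again without overlap, but the difference of 0.51 ± 0.19 did not pass (adjusted p = 0.0723). The difference between the old and the middle-aged SR responses was 0.74 ± 0.28 and was not called (adjusted p = 0.254).

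Vha36-3 stood at 7.50, 7.42, 7.49 and 7.45 in old SR flies on malnutrition, against 6.20, 6.44, 6.02 and 6.33 on optimal food. Middle-aged C flies gave 7.14, 8.33, 7.36 and 7.69 on malnutrition, against 5.87, 6.42, 6.67 and 6.28 on optimal food. Old C flies gave 7.16, 7.94 and 8.16 on malnutrition, against 6.24, 6.58, 7.37 and 6.87 on optimal food. The groups were apart in the first pair and the second, and in old C flies the lowest malnutrition array lay below 1 optimal array. The gene was 2.32-fold higher on malnutrition in old SR flies, 2.50-fold in middle-aged C flies and 1.98-fold in old C flies (limma adjusted p = 9.64e-05, 4.19e-05 and 0.00336). With only the arrays of old C flies on both foods in the fit, the last call was lost (adjusted p = 0.0937). In middle-aged SR flies the difference was 0.57 ± 0.23 (adjusted p = 0.0881).

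Vha100-4 stood at 5.46, 5.21, 5.32 and 5.56 in old SR flies on malnutrition, against 6.39, 6.33, 6.06 and 6.37 on optimal food. Middle-aged SR flies gave 5.58, 5.87, 5.58 and 5.74 on malnutrition, against 6.80, 6.84, 6.41 and 6.63 on optimal food. Old C flies gave 5.68, 5.57 and 5.52 on malnutrition, against 5.67, 6.53, 6.61 and 7.14 on optimal food. SR arrays did not overlap, while 1 optimal array of old C flies lay among the malnutrition arrays. The log2 difference was -0.90 ± 0.21 in old SR flies, -0.98 ± 0.21 in middle-aged SR flies and -0.89 ± 0.23 in old C flies (limma adjusted p = 0.00153, 0.00131 and 0.00401), and with the old C arrays of both foods fitted alone the adjusted p was 0.111. In middle-aged C flies it was -0.24 ± 0.21 (adjusted p = 0.522), and the difference between the ages of C flies in this response, -0.65, was not called (adjusted p = 0.192). Whether responses to malnutrition differed between the lines was not tested for any member.

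The neighbour of Vha100-4, Vha100-2, which encodes another a subunit, had a log2 difference of 0.33 ± 0.09 in old SR flies (limma adjusted p = 0.00578) and 0.33 ± 0.09 in middle-aged C flies (adjusted p = 0.00686), against 0.01 ± 0.10 in old C flies (adjusted p = 0.951). Both calls were lost without 1 array, replicate 1 of old SR flies on malnutrition (adjusted p = 0.0506) and replicate 2 of middle-aged C flies on malnutrition (adjusted p = 0.0509). The first was also lost with only the arrays of those groups in the fit (adjusted p = 0.0986).

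**Figure D2:**
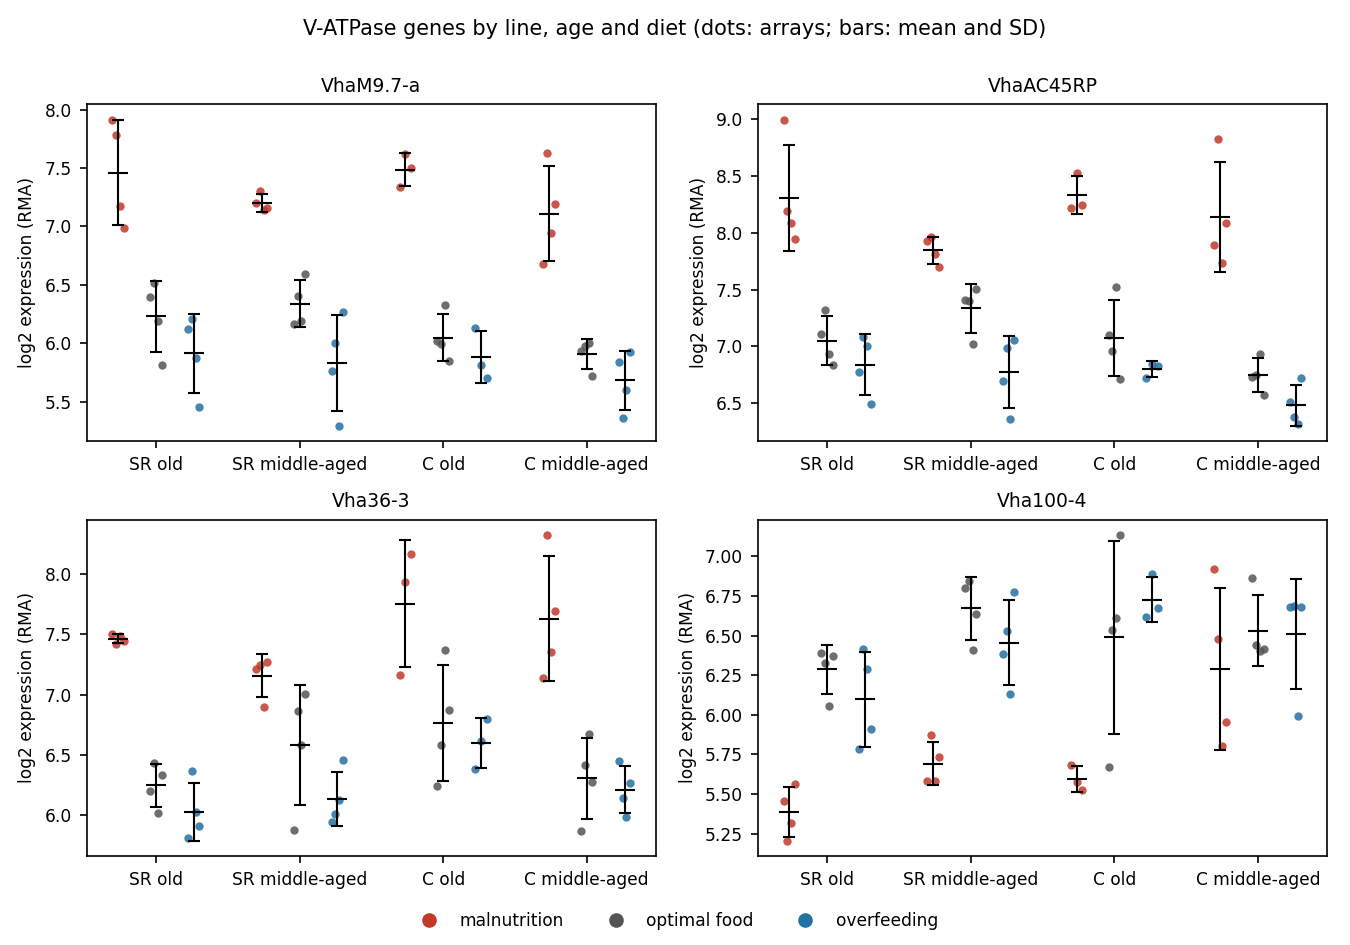
Each dot is the log2 expression of 1 array, with the group mean and SD as bars, for 3 V-ATPase genes that were higher and 1 that was lower on malnutrition. The malnutrition arrays of VhaM9.7-a lie above the optimal arrays in each line and age, and those of Vha100-4 lie below them in SR flies.

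Group means of VhaM9.7-a, VhaAC45RP, Vha36-3, Vha44 and VhaM9.7-c ran highest on malnutrition, then on optimal food, then on overfeeding in each line and age, as did those of Atg8a, while 6.9% of the 9743 probe sets that were not dim did so. VhaM9.7-a, for one, averaged 7.11 ± 0.40 on malnutrition, 5.91 ± 0.13 on optimal food and 5.68 ± 0.25 on overfeeding in middle-aged C flies (SD, n = 4 each). The step between optimal food and overfeeding was not called for any of these genes. The widest such step was that of VhaAC45RP in middle-aged SR flies, which averaged 7.33 ± 0.21 on optimal food and 6.77 ± 0.32 on overfeeding (limma adjusted p = 0.126).

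The other Vha genes called on malnutrition changed by smaller amounts. In middle-aged C flies the c subunit of the proton-carrying ring, Vha16-1, was 1.36-fold higher (limma adjusted p = 0.000905), the C subunit Vha44 1.28-fold (adjusted p = 0.00838) and the accessory protein VhaAC45 1.23-fold (adjusted p = 0.0310). Of the 20 Vha genes that were not dim, 18 had a positive difference there, with a median of 0.18, against -0.06 over all probe sets that were not dim. In old C flies the B subunit Vha55 was 1.27-fold lower (adjusted p = 0.0108) and the d subunit VhaAC39-1 was 1.23-fold lower (adjusted p = 0.0144). Vha55 stood at 11.63, 11.66 and 11.65 in old C flies on malnutrition, against 12.14, 11.88, 12.13 and 11.80 on optimal food, with no overlap. The difference between the ages of C flies in the response was -0.39 for Vha55 and -0.44 for Vha16-1, and neither was called (adjusted p = 0.0678 and 0.0635). With the old C groups alone in the fit the adjusted p was 0.122 for Vha55 and 0.191 for VhaAC39-1. VhaAC39-1 was also lost without replicate 3 of old C flies on malnutrition (adjusted p = 0.0543) or on optimal food (adjusted p = 0.0804).

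The 2 probe sets of Vha16-1 went different ways. The second probe set had a log2 difference of 0.04 ± 0.12 in middle-aged C flies, where the main one was called, and was called higher in middle-aged SR flies (0.47 ± 0.12, limma adjusted p = 0.00682), where the main one gave -0.04 ± 0.10. What the second reads besides or instead of the main transcript was not tested. Vha44 was lost without replicate 2 of middle-aged C flies on malnutrition (adjusted p = 0.0626), and VhaAC45 without that array (adjusted p = 0.208), without replicate 2, 3 or 4 of middle-aged C flies on optimal food (adjusted p = 0.0533 to 0.0961) or with only these groups in the fit (adjusted p = 0.0785).

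On malnutrition the called differences of Atg genes were smaller, at most 1.66-fold. Of 20, 2 were higher in old SR flies (Atg12 and Atg6), 2 in middle-aged SR flies (Atg17 and Atg18b) and 3 in old C flies (Atg101, Atg12 and Atg18b), while 2 were higher (Atg101 and Atg8a) and 1 lower (Atg10) in middle-aged C flies. Over all probe sets 8.24%, 7.36%, 9.52% and 9.03% were higher and 8.00%, 6.40%, 7.97% and 5.09% lower in these comparisons, so the counts of Atg genes lay close to the background and are no result about the family. The median log2 difference of the 20 genes was 0.08, 0.11, 0.10 and 0.01, against 0.03, -0.01, 0.03 and -0.04 over all probe sets. No Atg gene was called in all 4.

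Atg101, the partner of Atg13 in the Atg1 kinase complex, stood at 8.54, 8.73 and 8.73 in old C flies on malnutrition, against 8.14, 8.44, 8.06 and 8.10 on optimal food. It stood at 8.69, 9.17, 8.50 and 8.86 in middle-aged C flies on malnutrition, against 8.14, 8.18, 8.35 and 8.31 on optimal food. Neither pair overlapped, and the gene was 1.40-fold and 1.47-fold higher (limma adjusted p = 0.00628 and 0.000715). In SR flies the difference was 0.23 ± 0.12 in old and 0.17 ± 0.12 in middle-aged flies (adjusted p = 0.225 and 0.368). Atg1 itself, the kinase, was called in no comparison, and averaged 10.06 ± 0.11 in old SR flies on malnutrition and 9.83 ± 0.14 on optimal food (SD, n = 4 each). Atg17, the scaffold of that complex, stood at 7.15, 7.15, 7.26 and 7.19 in middle-aged SR flies on malnutrition, against 6.001, 6.84, 6.85 and 6.13 on optimal food. The optimal arrays split into a low pair, replicates 1 and 4, and a high pair, all below the malnutrition arrays. The difference of 0.73 ± 0.24 passed (adjusted p = 0.0393) but was lost without any 1 malnutrition array or without replicate 1 or 4 on optimal food (adjusted p = 0.0688 to 0.163).

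Atg12, the ubiquitin-like protein that is joined to Atg5, stood at 8.91, 9.17 and 8.92 in old C flies on malnutrition, against 8.45, 8.68, 8.44 and 8.53 on optimal food. It stood at 8.93, 9.03, 8.91 and 9.09 in old SR flies on malnutrition, against 8.74, 8.68, 8.53 and 8.77 on optimal food. No arrays overlapped, and the gene was 1.39-fold higher in C flies (limma adjusted p = 0.00320) and 1.24-fold higher in SR flies (adjusted p = 0.0454). The SR call was lost without replicate 2, 3 or 4 on malnutrition or replicate 1, 2 or 3 on optimal food (adjusted p = 0.0516 to 0.159). Atg18b, which binds the lipid made by the Vps34 kinase, was 1.38-fold higher in middle-aged SR flies (adjusted p = 0.00364), at 7.60, 7.67, 7.58 and 7.67 on malnutrition, against 7.21, 7.31, 7.32 and 6.84 on optimal food. It was 1.32-fold higher in old C flies (adjusted p = 0.0149), which was lost without replicate 3 on malnutrition (adjusted p = 0.0812), replicate 3 on optimal food (adjusted p = 0.0525) or with these groups alone (adjusted p = 0.0698).

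Atg6, the Beclin of the Vps34 complex, was 1.23-fold higher in old SR flies on malnutrition (limma adjusted p = 0.0341). Atg8a, the protein attached to the autophagosome membrane, was 1.20-fold higher in middle-aged C flies (adjusted p = 0.0283), and Atg10, an enzyme that conjugates Atg12, was 1.27-fold lower there (adjusted p = 0.0350). All 3 were lost with only the arrays of the groups compared (adjusted p = 0.0848, 0.0956 and 0.0770). Atg6 was also lost without replicate 2 or 4 on either food (adjusted p = 0.0535 to 0.143) and Atg8a without replicate 1 or 2 on malnutrition or 2 or 4 on optimal food (adjusted p = 0.0554 to 0.161). Atg10 was lost without replicate 1, 2 or 4 on malnutrition or 2, 3 or 4 on optimal food (adjusted p = 0.0587 to 0.168).

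**Figure D3:**
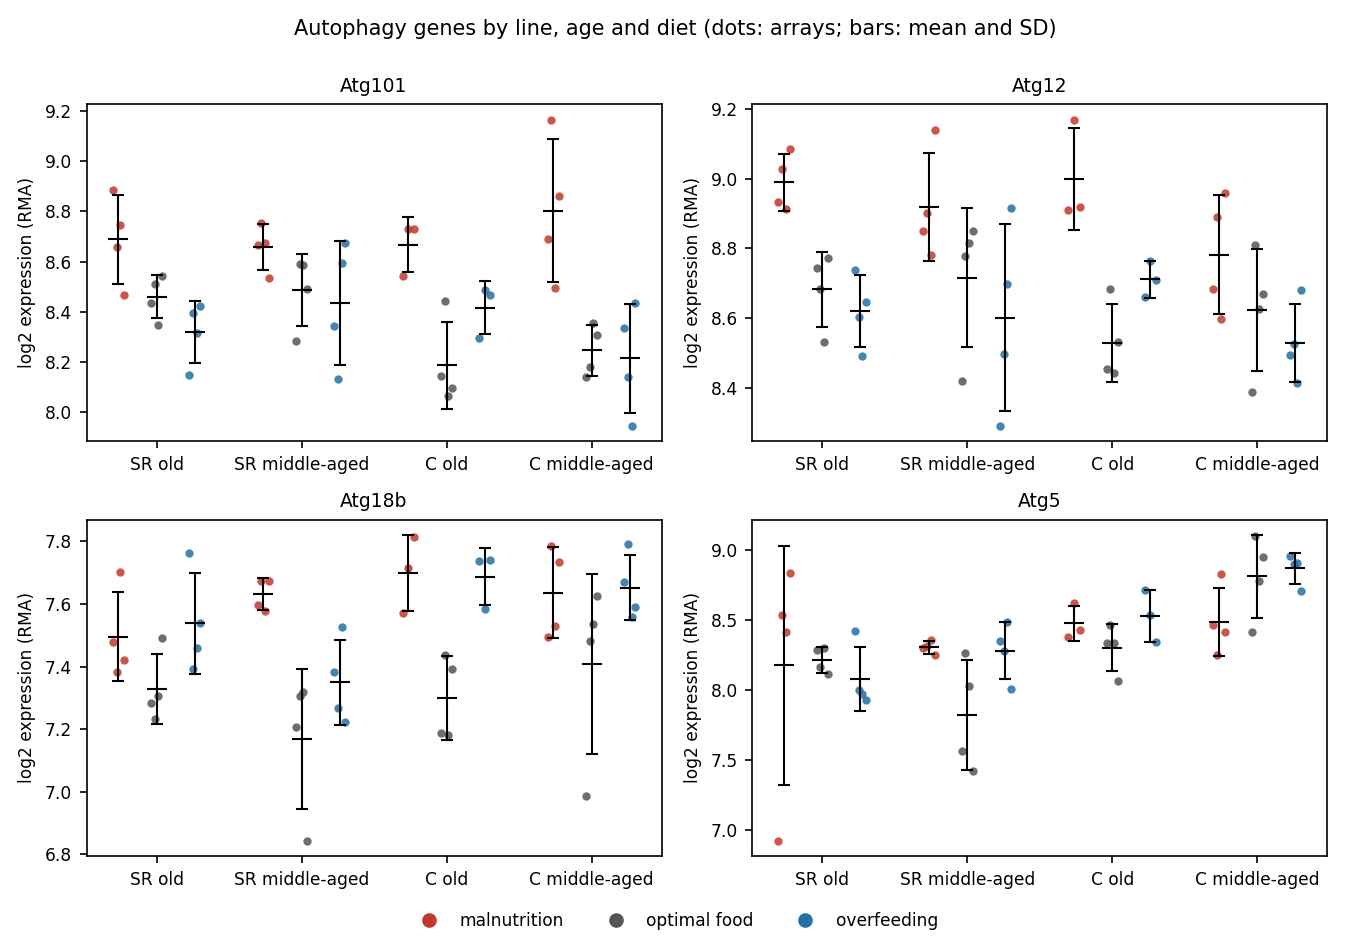
Each dot is the log2 expression of 1 array of Atg101, Atg12, Atg18b or Atg5, with the group mean and SD as bars. Atg101 arrays of C flies on malnutrition lie above those on optimal food. Their mean difference turns negative once centred on neuron markers, which lowers the median of all probe sets by 0.88 (old) and 0.99 (middle-aged). The Atg5 mean of SR flies lies below that of C flies at each age and diet, in old flies on malnutrition only through replicate 1 at 6.92.

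Counts of genes from connected pathways are read against the shares of all probe sets given above for these 4 comparisons (8.24%, 7.36%, 9.52% and 9.03% higher and 8.00%, 6.40%, 7.97% and 5.09% lower), and several lie near them. Of 24 measured genes of TOR and nutrient signalling, 2 were higher and 1 lower on malnutrition in old SR flies, 5 and 1 in middle-aged SR flies, 5 and 2 in old C flies, and 2 and 2 in middle-aged C flies. REPTOR, a transcription factor that TOR holds inactive, was higher in all 4 (log2 difference 0.45 to 0.68), and Sesn, a sestrin that restrains TOR, in 3 (0.48 to 0.64). The genes of this list called lower are not named here. Centring on neuron markers, given below, lowered the median of all probe sets by 0.55 to 0.99 in these comparisons. REPTOR and Sesn were not read on that scale. Of 21 lysosomal hydrolases and membrane proteins, 0 were higher and 6 lower in old SR flies, 1 and 3 in middle-aged SR flies, 0 and 10 in old C flies, and 1 and 1 in middle-aged C flies. The largest falls were those of the alpha-mannosidase genes, LManVI among them (-3.73 in old C flies). Of 10 partners in the Vps34 complex and nearby steps, 2 were higher and 1 lower in old SR flies, 1 and 0 in middle-aged SR flies, 2 and 1 in old C flies and 2 and 0 in middle-aged C flies. Of 12 genes of autophagosome fusion, 1 and 0, 0 and 1, 2 and 0, and 0 and 0 passed. Neither of 2 measured V-ATPase assembly genes did.

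Marker genes of tissues moved between malnutrition and optimal food as well. The mean of 17 neuron markers lay between 6.90 and 7.17 in the 4 groups on malnutrition, against 5.98 to 6.35 on optimal food, and 13, 10, 12 and 13 of the 17 were called higher in old SR, middle-aged SR, old C and middle-aged C flies. The mean of 7 midgut markers lay between 9.00 and 10.21 on malnutrition, against 11.00 to 11.51 on optimal food, with 7, 5, 6 and 1 of 7 called lower. Muscle markers (13) averaged 9.67 to 10.07 on malnutrition, against 8.81 to 9.64 on optimal food, with 7, 3, 3 and 11 called higher, and 1 lower in old C flies. Of 8 Malpighian tubule markers, 5, 4, 5 and 3 were lower, and their mean lay between 7.32 and 7.74 on malnutrition, against 7.75 to 8.34 on optimal food. Fat body markers (8) averaged 7.69 to 8.42 on malnutrition, against 8.70 to 9.25 on optimal food, with 5, 4, 5 and 3 lower. Eggshell markers (17) averaged 4.69 to 4.89 on malnutrition, against 6.48 to 6.99 on optimal food, with 3, 4, 2 and 2 lower. Their optimal arrays spread widely, over 4.88 to 11.27 in old C flies, whose mean was 5.33 without replicate 4 and 6.82 with it, and over 4.87 to 8.95 in old SR flies. Among the neuron markers, 3 were dim (para, VGlut and Shab), as were 3 eggshell and 2 fat body markers. The part of tissue composition in the differences of the members was not tested.

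Subtracting the mean of the neuron markers from each array lowered the median of all probe sets by 0.91 in old SR flies, 0.55 in middle-aged SR flies, 0.88 in old C flies and 0.99 in middle-aged C flies for malnutrition minus optimal food. On that scale VhaM9.7-a, VhaAC45RP, Vha36-3 and, in middle-aged SR flies, Atg17 kept a positive difference, but a smaller one, while the calls named above for Atg6, Atg8a, Atg12, Atg18b, Atg101, Vha16-1, Vha44, Vha100-2 and VhaAC45 turned to a negative one. VhaAC45RP kept all 3 calls, at 0.35, 0.38 and 0.40 in old SR, old C and middle-aged C flies (limma adjusted p = 0.0116, 0.0104 and 0.00359). VhaM9.7-a kept its calls in old SR and old C flies (0.32 and 0.56, adjusted p = 0.0354 and 0.00121) and lost them in middle-aged SR and middle-aged C flies (0.31 and 0.22, adjusted p = 0.0506 and 0.152). Vha36-3 lost all 3 of its calls, at 0.30, 0.11 and 0.33 in old SR, old C and middle-aged C flies (adjusted p = 0.114, 0.593 and 0.0862), and Atg17 its only one (0.18, adjusted p = 0.569). The calls of Vha100-4 were kept. The changes of the members are relative to the bulk of probe sets on each array.

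**Figure D4:**
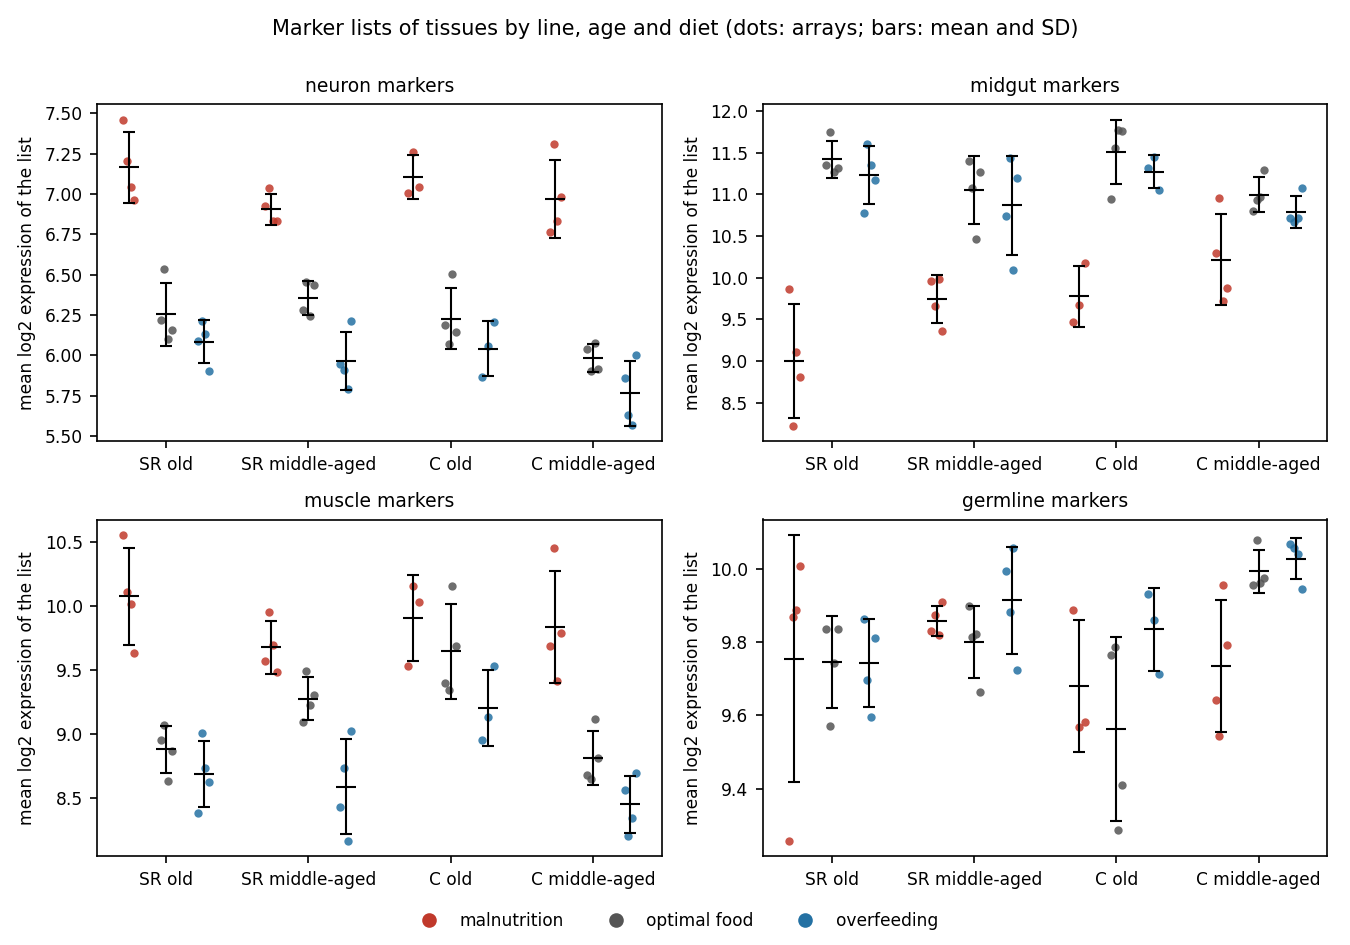
Each dot is the mean log2 expression of a marker list on 1 array, with the group mean and SD as bars. Neuron markers lie higher on malnutrition (6.90 to 7.17) than on optimal food (5.98 to 6.35), midgut markers lie lower (9.00 to 10.21 against 11.00 to 11.51), and germline markers of C flies on optimal food lie lower in old (9.56) than in middle-aged flies (9.99).

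Overfeeding gave no call in either family. Over all probe sets, 0.248% passed in old SR flies, 1.10% in middle-aged SR flies, 0.871% in old C flies and 0.0106% in middle-aged C flies. By limma 1, 3, 4 and 2 of 20 Atg genes and 3, 7, 2 and 2 of 31 Vha genes had an unadjusted p under 0.05, against 8.78%, 17.9%, 18.3% and 6.31% of all probe sets. Of the 20 Vha genes that were not dim, 1, 4, 3 and 4 had a positive difference, with medians of -0.11, -0.17, -0.11 and -0.08, against 0.00, 0.04, 0.07 and 0.00 over all probe sets that were not dim. Of 19 Atg genes, 10, 10, 13 and 9 were positive.

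Between the lines, Atg5, the protein to which Atg12 is joined, showed the largest called difference of either family. In middle-aged flies on optimal food it stood at 7.57, 8.26, 8.02 and 7.42 in SR flies, against 8.41, 9.10, 8.78 and 8.95 in C flies. All SR arrays lay below all C arrays, and the gene was 1.99-fold lower in SR flies (log2 difference -0.99 ± 0.22, limma adjusted p = 0.00218). Without each array in turn the adjusted p stayed at 0.0184 or less. The lowest SR arrays, replicates 1 and 4, were also the low pair of Atg17 (6.001 and 6.13). Replicate 1 was the lowest C array for both genes, with Atg17 at 6.12. Low Atg17 in replicate 1 recurred elsewhere. It read 5.96 in old SR flies and 5.96 in old C flies, both on malnutrition, and 6.06 in old C flies given optimal food, the lowest array each time. In the overfeeding groups replicate 1 was never the lowest array for Atg17. The cause of these low readings was not tested. Atg5 averaged lower in SR than in C flies at 6 of 6 ages and diets, but the other 5 differences, of -0.09 to -0.59, were not called. On overfeeding middle-aged SR arrays, at 8.35, 8.28, 8.49 and 8.01, again lay below the C arrays at 8.96, 8.90, 8.91 and 8.71 (adjusted p = 0.140). In old SR flies on malnutrition replicate 1 stood at 6.92, against 8.53, 8.42 and 8.83 on the other arrays, and it set the direction there: without it SR flies averaged 8.59, above the 8.48 of C flies, which leaves 5 of 6.

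Old minus middle-aged differences of Atg5 on optimal food were 0.40 ± 0.22 in SR flies and -0.51 ± 0.22 in C flies. The difference between these was 0.91 ± 0.31 and did not pass (limma adjusted p = 0.0663). Over all probe sets 5.26% were called for this age by line interaction on optimal food, against 0.0264% on malnutrition and 0.0950% on overfeeding, and no member was called in any of the 3. At an unadjusted p under 0.05 limma gave 7 Atg and 3 Vha genes on optimal food, 0 and 6 on malnutrition and 1 and 0 on overfeeding, against 26.5%, 4.31% and 4.79% of all probe sets.

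In the same comparison, middle-aged SR with C flies on optimal food, 1 Atg gene was higher and 1 lower, and 2 Vha genes were higher, among 8.48% of all probe sets higher and 8.22% lower. Atg9, the membrane protein that supplies lipid to the autophagosome, was 1.15-fold higher in SR flies (limma adjusted p = 0.0305), at 8.43, 8.47, 8.43 and 8.63, against 8.31, 8.29, 8.25 and 8.29 in C flies. VhaAC45RP stood at 7.41, 7.40, 7.02 and 7.50 in SR flies, against 6.73, 6.75, 6.94 and 6.57 in C flies, and was 1.505-fold higher (adjusted p = 0.0322). Vha16-1 stood at 12.93, 12.85, 12.71 and 12.96 in SR flies, against 12.51, 12.48, 12.54 and 12.53 in C flies, and was 1.27-fold higher (adjusted p = 0.0120). None of these groups overlapped. The C arrays here are also those of middle-aged C flies on optimal food in the malnutrition and ageing comparisons. In this comparison all SR arrays lay above all C arrays for 1 of 20 Atg and 4 of 31 Vha genes. They lay below for 1 Atg gene and 0 Vha genes. Over all probe sets 10.1% lay above and 10.5% below in this way, so the separation is no result about the families. The second probe set of Vha16-1 was called in the opposite direction, at 11.96, 12.30, 11.90 and 11.66 in SR flies, against 12.27, 12.36, 12.35 and 12.20 in C flies (-0.34 ± 0.12, adjusted p = 0.0445), so no direction was settled for this gene.

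On the scale set by the neuron markers, which averaged 6.35 in SR and 5.98 in C flies of this comparison and lowered the median of all probe sets by 0.37, the differences of Atg9 and Vha16-1 turned negative and that of VhaAC45RP was 0.22. Leaving out 1 array ended the call of Vha16-1 for SR replicate 4 (limma adjusted p = 0.0521), of Atg9 for SR replicate 4 or C replicate 2, 3 or 4 (adjusted p = 0.0596 to 0.151), and of VhaAC45RP for replicate 1, 2 or 4 of either line (adjusted p = 0.0570 to 0.104). Atg9 was also lost with only these groups in the fit (adjusted p = 0.103), and Atg9 and VhaAC45RP with the germline mean as a covariate (adjusted p = 0.102 and 0.117).

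In old flies on malnutrition 3 Vha genes were higher in SR than in C flies and none was lower, with 1.82% of all probe sets higher and 1.78% lower, and no Atg gene was called. VhaAC39-1, the d subunit that seats the stalk on V0, stood at 11.66, 11.53, 11.60 and 11.60 in SR flies, against 11.22, 11.20 and 11.15 in C flies, a difference of 0.41 ± 0.09 (limma adjusted p = 0.00364). Vha55 stood at 12.27, 11.86, 11.93 and 11.83 in SR flies, against 11.63, 11.66 and 11.65 in C flies (0.33 ± 0.10, adjusted p = 0.0485). VhaPPA1-1, a proton-ring subunit, stood at 11.88, 11.81, 11.84 and 11.90 in SR flies, against 11.54, 11.63 and 11.72 in C flies (0.23 ± 0.07, adjusted p = 0.0491). All 3 were without overlap. The 3 C arrays also stand for old C flies on malnutrition in the comparisons with optimal food and with middle-aged flies. The calls of these comparisons are thus not independent of one another. In all, 5 of 31 Vha genes lay higher on all SR arrays than on all C arrays and 0 lower. Over all probe sets 4.07% lay higher and 4.45% lower in this way. With only these 7 arrays in the fit none of the 3 called genes passed (adjusted p = 0.116 for VhaAC39-1, 0.528 for Vha55 and 0.540 for VhaPPA1-1). On the scale of the neuron markers none passed either (adjusted p = 0.506 for VhaAC39-1, 0.644 for Vha55 and 0.9999 for VhaPPA1-1). That scale lowered the median of all probe sets by only 0.06 here. Over all probe sets 163 were then higher and 335 lower, against 344 and 337 before.

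Vha55 lost its call without SR replicate 1 or 3 or any C replicate (limma adjusted p = 0.0751 to 0.152), and VhaPPA1-1 without any SR replicate or C replicate 1 or 2 (adjusted p = 0.0626 to 0.220), while VhaAC39-1 kept it. Differences of SR from C flies in the other 4 pairs gave no call, where 4.35% of probe sets passed in old flies on optimal food, 2.55% in old flies on overfeeding, 3.41% in middle-aged flies on malnutrition and 4.47% in middle-aged flies on overfeeding. By limma 4, 1, 1 and 6 Atg genes and 3, 2, 3 and 2 Vha genes there had an unadjusted p under 0.05, against 17.5%, 11.2%, 12.6% and 15.9% of all probe sets.

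Of the 9 calls with age 8 were made in C flies on optimal food, where 2 of 20 Atg genes were higher and 5 lower in old than in middle-aged flies and 1 of 31 Vha genes was higher. Over all probe sets 9.76% were higher and 16.3% lower there. The 5 lower genes were Atg4b, a protease that trims Atg8 (1.32-fold), Atg10 (1.26-fold), Atg6 (1.24-fold), Atg16, which places the Atg12 and Atg5 conjugate (1.22-fold), and Atg7, the enzyme that activates Atg8 and Atg12 (1.19-fold). Atg8a was 1.19-fold and Atg9 1.16-fold higher. The median log2 difference of the 20 genes was -0.12, against -0.03 over all probe sets.

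Atg7 stood at 8.07, 7.99, 7.81 and 7.87 in old C flies, against 8.19, 8.24, 8.16 and 8.15 in middle-aged C flies (limma adjusted p = 0.0216). Atg6 stood at 8.42, 8.38, 8.40 and 8.13 in old flies, against 8.65, 8.71, 8.48 and 8.73 in middle-aged flies (adjusted p = 0.0202). Atg9 stood at 8.50, 8.56, 8.37 and 8.58 in old flies, against 8.31, 8.29, 8.25 and 8.29 in middle-aged flies (adjusted p = 0.0158). The same middle-aged C arrays were the lower group in its call between the lines, and their mean was the lowest of the 12 groups. These 3 did not overlap between the ages, while Atg4b, Atg10, Atg16 and Atg8a did (adjusted p = 0.0435, 0.0272, 0.0130 and 0.0238). In all, 1 of 20 Atg genes lay higher on every old array than on every middle-aged one, and 2 lay lower. For the 31 Vha genes these counts were 2 and 1. Over all probe sets 9.89% lay higher and 13.02% lower in this way, so the separation is no result about the families. Vha100-5, an a subunit gene, was 1.76-fold higher in old flies, at 8.11, 8.47, 9.38 and 8.81, against 7.67, 7.79, 8.17 and 7.89 in middle-aged flies (adjusted p = 0.0296), with 1 array of each age in the range of the other.

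In SR flies on optimal food no Atg or Vha gene was called with age, and 0.955% of all probe sets were. At an unadjusted p under 0.05 limma gave 0 genes of both families, and 10.7% of all probe sets. Of the ages on optimal food, only the C pair differed in germline markers by calls, with 1 of 29 higher and 21 lower, and their mean stood at 9.56 in old flies (9.29 to 9.79 per array), against 9.99 in middle-aged flies (9.96 to 10.08). In SR flies it stood at 9.75 and 9.80. Muscle markers of C flies averaged 9.64 in old and 8.81 in middle-aged flies, with 8 of 13 called higher. The part of these tissues in the members' differences was not tested beyond the fit with the germline mean.

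With the germline mean as a covariate none of the 8 genes called with age in C flies on optimal food passed (limma adjusted p = 0.787 to 0.993), and the difference of Vha100-5 turned to -0.02. Over all probe sets 176 were higher and 24 lower with this covariate, against 1850 and 3086 without it. The loss of these calls is thus no result about the members. With only these 8 arrays in the fit all 7 Atg calls were lost (adjusted p = 0.0532 to 0.158). On the scale of the neuron markers, which lowered the median of all probe sets by 0.24, Atg9 stood at -0.03. Without 1 array, Atg9 lost its call for old replicate 4 (adjusted p = 0.0612) and Atg16 for old replicate 3 or middle-aged replicate 1 (0.106 and 0.0534). Atg6 lost it for old replicate 4 or middle-aged replicate 2 or 4, Atg7 for old replicate 3 or 4 or middle-aged replicate 2, and Atg8a for old replicate 1 or 3 or middle-aged replicate 2 or 4 (adjusted p = 0.0622 to 0.106). Atg4b and Vha100-5 lost it for old replicate 3 or 4 or middle-aged replicate 1, 2 or 4, and Atg10 for old replicate 1, 3 or 4 or middle-aged replicate 2, 3 or 4 (adjusted p = 0.0502 to 0.200).

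**Figure D5:**
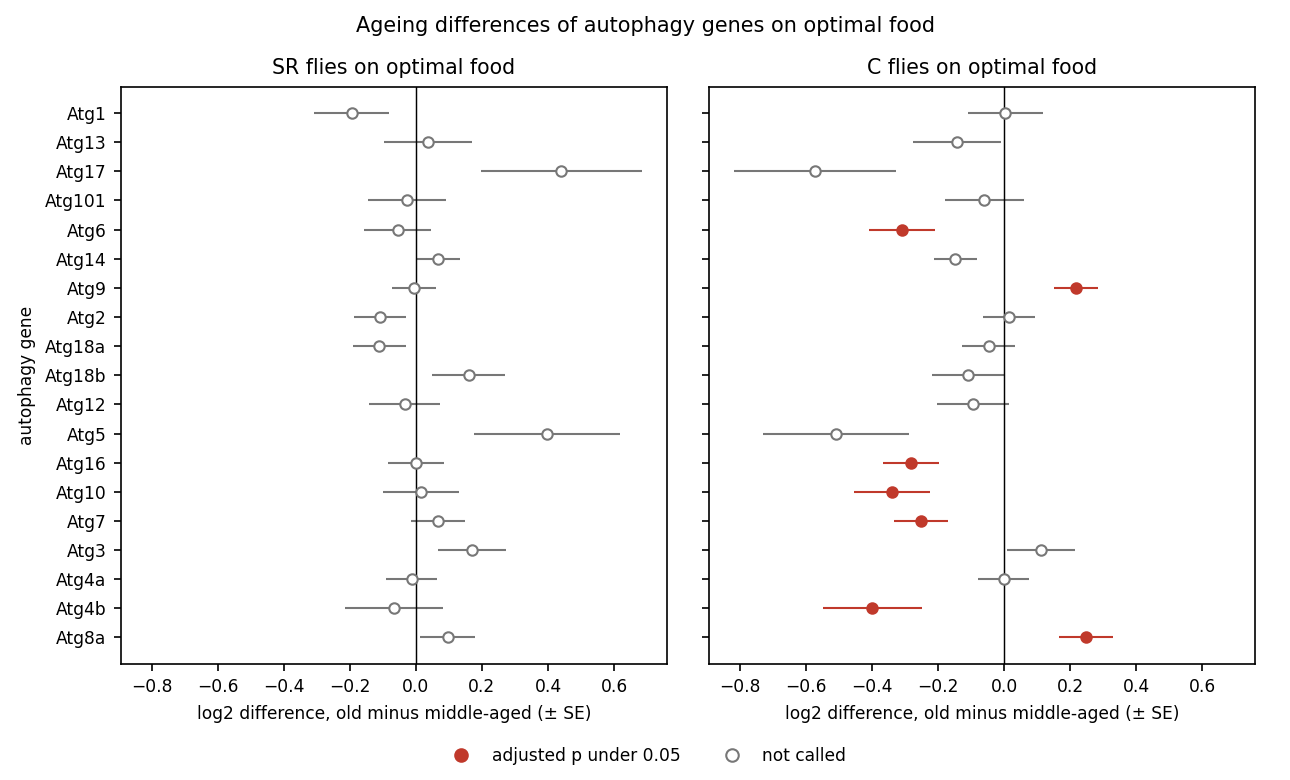
Points give the log2 difference of old minus middle-aged flies, with the SE as bars, for the 19 Atg genes that were not dim, in SR flies (left) and C flies (right) on optimal food. Filled points mark the 7 genes called in C flies, 5 below and 2 above 0, and no gene is called in SR flies. Atg9 falls to -0.03 once centred on neuron markers, which lowers the median of all probe sets by 0.24 in C flies.

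On the other foods ageing gave 1 call. In C flies on malnutrition Vha100-2 was 1.32-fold lower in old flies (limma adjusted p = 0.0275), at 10.97, 10.85 and 11.00, against 11.35, 11.49, 11.38 and 11.14 in middle-aged flies, with no overlap, where 0.301% of all probe sets were higher and 0.522% lower. Of 31 Vha genes 9 lay lower on all old arrays than on all middle-aged ones and 0 higher, while over all probe sets 3.81% lay lower and 3.09% higher in this way. By limma 11 of the 31 had an unadjusted p under 0.05, against 9.52% of all probe sets. The old arrays here also enter the comparisons of old C flies on malnutrition with optimal food and with SR flies. The 20 that were not dim had a median of -0.20, with 5 positive, against -0.01 over all probe sets that were not dim. The call was lost without old replicate 1 or 2 or middle-aged replicate 1, 2 or 3 (adjusted p = 0.0589 to 0.193), in a fit of these groups alone (adjusted p = 0.326) and on the scale of the neuron markers (adjusted p = 0.0795). Midgut markers averaged 9.77 in old and 10.21 in middle-aged flies of this pair, and neuron markers 7.10 and 6.97. Malpighian tubule markers averaged 7.32 in old and 7.62 in middle-aged flies, and fat body markers 8.07 and 8.42, and the part of these tissues in the Vha differences was not tested.

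Ageing on malnutrition in SR flies (0.327% of all probe sets called) and on overfeeding in SR flies (1.79%) and C flies (1.24%) gave no call in either family. At an unadjusted p under 0.05 limma gave 0, 3 and 3 Atg genes and 2, 0 and 4 Vha genes there, against 8.13%, 10.9% and 15.6% of all probe sets.

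Whether the age difference itself changed with food was tested in each line. In C flies Vha100-5 was called (-1.45 ± 0.41, limma adjusted p = 0.0367): old minus middle-aged was -0.63 ± 0.30 on malnutrition and 0.81 ± 0.28 on optimal food. On malnutrition old C flies stood at 7.76, 8.26 and 8.04, against 8.69, 9.17, 8.28 and 8.47 in middle-aged flies, without overlap. For this interaction 1.71% of all probe sets were higher and 3.49% lower, and 1 of 31 Vha and 0 of 20 Atg genes were called. Of the 20 Vha genes that were not dim 3 were positive, with a median of -0.30, against 0.08 over all probe sets that were not dim. Both ages on optimal food enter this value as well as that of ageing on optimal food. In SR flies no member was called, with 0.670% of all probe sets, and 2 Atg and 2 Vha genes had an unadjusted p under 0.05, against 11.7% of all probe sets.

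The call of Vha100-5 was lost with the germline mean as a covariate (limma adjusted p = 0.322). Over all probe sets 30 were higher and 156 lower with this covariate, against 325 and 661 without it. The call was also lost when 1 array was left out, for 8 of the 15 arrays. These were replicate 1 of old or 1 or 2 of middle-aged flies on malnutrition and replicate 3 or 4 of old or 1, 2 or 4 of middle-aged flies on optimal food (adjusted p = 0.0520 to 0.138).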

How the data were processed

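RNA of 46 pools of 5 virgin females was hybridised to Affymetrix Drosophila 2.0 arrays. The deposited values are log2 expression of 18952 probe sets, which the authors computed by robust multi-array average (RMA, R 2.7.0 per the submitters' processing notes). RMA puts all arrays on one distribution, so each value is relative to the rest of its array. Symbols came from the annotation table of the array: 13647 probe sets name 1 gene, 402 several and 4903 are not listed there. Levels of different probe sets were not compared.

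Group means were estimated jointly from the 46 arrays in limma 3.58.1 (R 4.3.3), p-values were adjusted over all probe sets by the Benjamini-Hochberg method, and an adjusted p under 0.05 was a call. The study's methods name MAANOVA, in whose place limma was used. The script was tested on simulated data. The number of arrays limits the precision, and p-values measure the spread between pools of each line. The members and lists were chosen with earlier results of these data known. Genes were named as the 5 or fewer called members with the largest rise and with the largest fall in a comparison, members with a central role, and up to 4 called genes of each other list.

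Alternatives were a replicate number block, a fit of the groups compared alone, a filter on mean log2 of at least 5, centring on neuron markers, the germline mean as a covariate and leaving out each array. Deviations of arrays with the same number correlated above 0.1 in every pair only for old against middle-aged C flies on optimal food (0.344 to 0.401) and for line in old flies on overfeeding (0.118 to 0.192), where the block is read as a pairing drawn from the data. It left the counts of members called there unchanged. Figures were drawn with matplotlib 3.10.9 in Python 3.11.15.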

Additional observations from a re-analysis of the deposited data

Results flagged for a closer look

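Atg6 of old C flies on optimal food stood at 8.13 in replicate 4, against 8.38 to 8.42 in the other 3 arrays. The mean of the 20 Vha genes that were not dim stood at 10.66 in replicate 1 of old SR flies on malnutrition, against 10.35 to 10.40 in the other 3. The search covered 93 sets of 4 arrays, each a called gene in a group behind its call, or a family mean in a group. These were the 2 sets found with an array far from the rest, and chance gives about 1 in 20. Genes in groups behind no call of theirs were not examined. Atg17 in old SR flies on malnutrition was among those, at 5.96 in replicate 1, against 7.21, 7.25 and 7.32. The effect of age on Vha100-5 differed between malnutrition and optimal food in C flies by -1.45 on the log2 scale (limma adjusted p = 0.0367). The causes were not tested.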

How the results depend on the processing

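Of the 47 calls of members, 47 were kept with the replicate number as a block and 47 with the filter on dim probe sets, 25 in fits of the groups compared alone, 32 with the germline mean as a covariate and 18 after centring on the neuron markers, and 21 were kept whichever array was left out. No call changed direction without 1 array. In each count below the cause of the change was not tested.

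With the replicate block, 3 Vha genes were called for the ages of C flies on malnutrition, 1 Atg gene for line in old flies on malnutrition and 4 Atg genes for line in middle-aged flies on optimal food, and the pairing changed no call of a member named above. With the groups compared alone, the counts were 0 Vha for the ages of C flies on malnutrition, 1 Atg for the ages of C flies on optimal food, 0 Vha for line in old flies on malnutrition, 1 Vha for line in middle-aged flies on malnutrition, 1 Atg for line in middle-aged flies on optimal food and 1 on overfeeding, and, for malnutrition, 1 Atg in old SR flies, 2 Vha in old C flies and 1 Atg in middle-aged C flies. With the filter, 4 Atg were called for line in middle-aged flies on optimal food and 4 Vha for malnutrition in middle-aged SR flies.

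After centring, 0 Vha were called for the ages of C flies and 0 for line in old flies, both on malnutrition, and 13 Atg and 14 Vha for line in middle-aged flies on optimal food. For malnutrition 20 Atg and 30 Vha were called in old SR flies, 15 and 26 in middle-aged SR flies, 19 and 30 in old C flies and 20 and 28 in middle-aged C flies, and for overfeeding 13 and 17 in middle-aged SR flies. Over all 18952 probe sets 187 were then higher and 17945 lower in old SR flies, and 135 and 14476 in middle-aged SR flies. In old C flies these were 135 and 17162, and in middle-aged C flies 253 and 17698. The line comparison gave 587 and 9384, and overfeeding in middle-aged SR flies 11036 and 235. These counts of members are thus no result about the families. Of all probe sets called in old SR flies, 1.03% were then higher on malnutrition, against 50.7% before. Centring moved the median of all probe sets up by 0.39 for overfeeding in middle-aged SR flies and down by 0.24 for the ages of C flies on optimal food. It turned 16 calls round: Atg9 for the ages of C flies on optimal food (-0.026) and for line in middle-aged flies on optimal food (-0.16), Vha16-1 for the same line comparison (-0.021), and for malnutrition Atg12 (-0.60), Atg6 (-0.61) and Vha100-2 (-0.58) in old SR flies, Atg18b (-0.087) in middle-aged SR flies, Atg101 (-0.40), Atg12 (-0.41) and Atg18b (-0.48) in old C flies, and Atg101 (-0.43), Atg8a (-0.73), Vha100-2 (-0.66), Vha16-1 (-0.54), Vha44 (-0.63) and VhaAC45 (-0.69) in middle-aged C flies.

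With the germline covariate, 5 Vha were called for the ages of C flies on malnutrition, 0 Atg and 0 Vha for the ages of C flies on optimal food, 1 Vha for line in old flies on optimal food and 1 on overfeeding, 1 Atg and 1 Vha for line in middle-aged flies on optimal food, 5 Vha for malnutrition in middle-aged SR flies and 1 Atg in middle-aged C flies. Vha100-5 turned round for the ages of C flies on optimal food (-0.020), where 88% of all probe sets called were then higher, against 37.5% before. In that comparison 176 probe sets were then higher and 24 lower, against 1850 and 3086 before.

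Without 1 array in turn, Atg counts ranged over 2 to 7 for the ages of C flies on optimal food, 1 to 4 for line in middle-aged flies on optimal food, 0 to 1 on overfeeding and 0 to 1 in old flies on malnutrition, and for malnutrition over 0 to 2 in old SR, 1 to 2 in middle-aged SR, 2 to 3 in old C and 1 to 4 in middle-aged C flies. For overfeeding they were 0 to 1 in middle-aged SR and in old C flies. Vha counts ranged over 0 to 2 for the ages of C flies on either food, 1 to 3 for line in old flies on malnutrition, 0 to 3 in middle-aged flies on optimal food and 0 to 1 on malnutrition, and for malnutrition over 5 to 6 in old SR, 2 to 4 in middle-aged SR, 5 to 8 in old C and 4 to 8 in middle-aged C flies.

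The limits are those of whole-body arrays of 1 SR and 1 C line, with 3 or 4 pools a group. Dim probe sets, 12 of the 51 members, leave small differences unseen.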
